A study of Drosophila melanogaster with 7 samples.

Results

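The nuclear genes that encode subunits of the oxidative phosphorylation (OXPHOS) complexes were compared between Esg-GFP+ midgut cells of wild type and Sox21a-/- flies. They were taken as all rows of the expression table whose FlyBase symbol starts with ND- (complex I), Sdh (complex II), UQCR- (complex III), COX and a digit (complex IV) or ATPsyn (complex V), leaving out genes encoded in mitochondrial DNA. This gave 55 of the 7608 genes in the table, with 27 in complex I, 5 in complex II, 6 in complex III, 8 in complex IV and 9 in complex V. By their roles, 51 encode subunits, 3 are paralogues named after a subunit (COX6AL, COX7AL and UQCR-11L) and 1 (Sdhaf3) is an assembly factor. A further 33 symbols of the annotation follow the same rule and were not analysed here, among them ATPsynbeta, ATPsynC, COX5A and ND-30.

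OXPHOS is the last stage of cellular respiration. Complex I (NADH dehydrogenase) and complex II (succinate dehydrogenase) pass electrons to ubiquinone, complex III (ubiquinol-cytochrome c reductase) passes them on to cytochrome c, and complex IV (cytochrome c oxidase) hands them to oxygen. Complexes I, III and IV pump protons across the inner mitochondrial membrane, and complex V (ATP synthase) lets them flow back to make ATP. All but complex II also contain subunits encoded in mitochondrial DNA, so the nuclear genes must be expressed together with those. In the fly midgut, intestinal stem cells (ISCs) and enteroblasts (EBs) give rise to enterocytes, absorptive cells with many mitochondria.

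Progenitor cells were sorted by a GFP fusion of Escargot, which both genotypes carried, from midguts of adult flies at day 10. The groups were the line Esg-GFP (wild type, 4 libraries) and the line Esg-GFP; Sox21a-/- (3 libraries), in which the Sox transcription factor gene Sox21a is deleted. Which deletion allele was used is not given in the sources used here, many guts were pooled per sample, and the Esg-GFP gate takes ISCs and EBs together. The values are FPKM, a read density corrected for gene length and library size, and came without read counts.

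Library depth was estimated from the spacing of the lowest values. It came to about 10186358 to 10283909 reads in the libraries of higher depth (replicates 1 and 2 of wild type, replicate 2 of Sox21a-/-). In the other 4 libraries (lower depth) it came to about 8235833 to 8898278 reads, so both levels hold both genotypes. The estimate is rough. It rests on 5 genes in wild type replicate 2 and on 21 to 39 in each other library. Of the values taken as 1 to 5 reads, only 17.7% to 33.2% per library lay near a whole read. Of all values, 25.7% were exactly 0, against 6.75% of those of the OXPHOS genes (26 of 385), and 14 of the 55 genes had a 0 in some library. Genes such as ATPsynO, at 73.2 to 259.9 FPKM in 6 libraries and at 0 in Sox21a-/- replicate 2, show that a 0 can be a failed estimate. All comparisons therefore used values above 0, and zeros are stated with the genes they affect. In wild type, Sox21a itself had values of 0, 0, 230.4 and 232.9 FPKM in replicates 1 to 4, while the libraries labelled Sox21a-/- gave 96.3, 50.6 and 0 FPKM. Its values above 0 were lower in Sox21a-/- (log2 difference -1.72, limma adjusted p = 0.035), but the zeros in wild type and the signal left in Sox21a-/- mean that it does not check each label, and which part of the gene was read is unknown. No libraries were more alike than wild type replicates 3 and 4. Their chi-square per degree of freedom was 2.43, above sampling noise, and that of the other pairs within a genotype was 10.3 to 61.8, so both were kept. The methods speak of 3 biological replicates, whereas 4 wild type libraries are labelled, and no label ties a library to its own group of flies. Wild type replicates 3 and 4 may therefore not be separate samples, in which case n = 4, the SDs and the P values treat them as more independent than they are. With these libraries averaged into 1 value, an alternative added once the data had been seen, the median log2 difference of the OXPHOS genes described next was 0.70.

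The question asked was whether the genes of complexes I to V differ in level between wild type and Sox21a-/- progenitors. Each gene with at least 2 values above 0 in each group and a mean of at least 1 FPKM over its values above 0 was tested with limma on log2(FPKM + 1), a scale that understates changes of weakly expressed genes, two-sided, and P values were adjusted over all 5022 genes tested by the Benjamini-Hochberg method. Of the 55 OXPHOS genes, 52 could be tested. In 51 of them the log2 difference (Sox21a-/- minus wild type) was above 0, where 46.5% of all genes tested had such a sign. Their median log2 difference was 0.61, which is a fold of 1.53, while that over all genes tested was -0.04. OXPHOS genes above 0 in all libraries moved together, with a median correlation of 0.93 between pairs over the 7 libraries. Counts of OXPHOS genes, here and below, are therefore not counts of independent observations. None of the 52 passed an adjusted p of 0.05 in either direction (limma with Benjamini-Hochberg adjustment), where 6.87% of all genes tested passed with higher and 5.28% with lower values in Sox21a-/-. The lowest adjusted p was 0.0549, that of ND-42. At an unadjusted limma P of 0.05, 19 genes (36.5%) passed with higher values and none with lower values, against 14.6% and 14.7% of all genes. The number was 4 of 50 without Sox21a-/- replicate 1 (8.0%, against 12.2% of all genes in that fit). By the criteria of P of at most 0.05 and a fold of at least 2, only UQCR-Q, COX8 and ATPsynCF6 passed (5.77%, against 8.02% of all genes), and none with lower values (2.97% of all genes). This count was 0 without wild type replicate 2 or without Sox21a-/- replicate 1 (8.38% and 7.97% of all genes in those fits). It was 7 without wild type replicate 3 (13.5%, against 8.04% of all genes). It was 9 without wild type replicate 4 (17.3%, against 8.27%) or without Sox21a-/- replicate 2 (17.6%, against 7.48%).

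Values above 0 lay fully apart between the groups in 22 of the 52 genes, all with higher values in Sox21a-/- (42.3%). Over all genes tested, 16.9% were apart in this direction and 21.2% in the other. Among the 41 OXPHOS genes above 0 in all 7 libraries, 18 were apart with higher values (43.9%, against 16.1% of all such genes) and none with lower values (17.9%). In these 41, the highest value lay in Sox21a-/- replicate 1 for 39 genes. The lowest lay in wild type replicate 2 for 35 genes and in wild type replicate 1 for the other 6. These 41 genes together took up 0.820% to 1.17% of the summed FPKM of the wild type libraries and 1.39% to 1.61% of that of the Sox21a-/- libraries. In bulk samples, more cells of a type and more RNA per cell cannot be told apart.

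**Figure D1:**
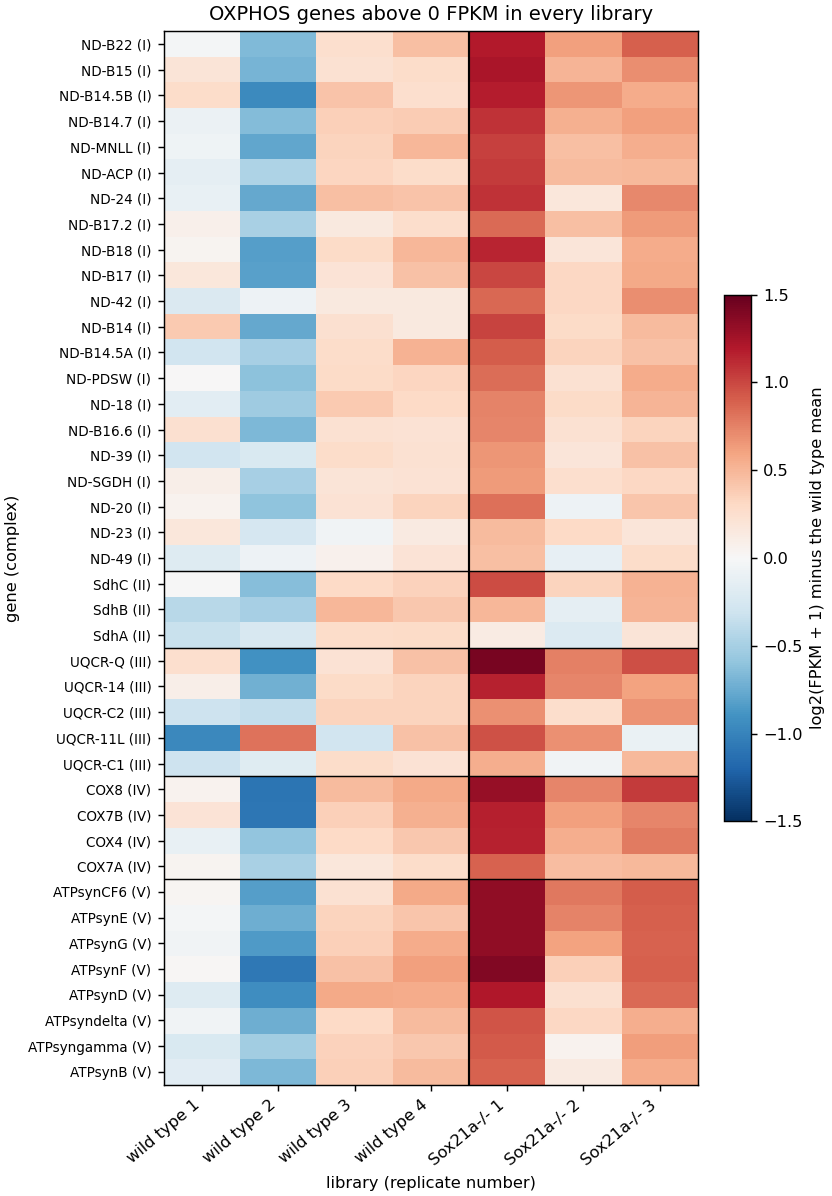
Heat map of the 41 OXPHOS genes above 0 FPKM in every library, with genes in rows grouped by complex, libraries in columns, and colour giving log2(FPKM + 1) minus the gene's wild type mean (red above, blue below). Sox21a-/- replicate 1 is the highest library for 39 genes and wild type replicate 2 the lowest for 35.

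**Figure D2:**
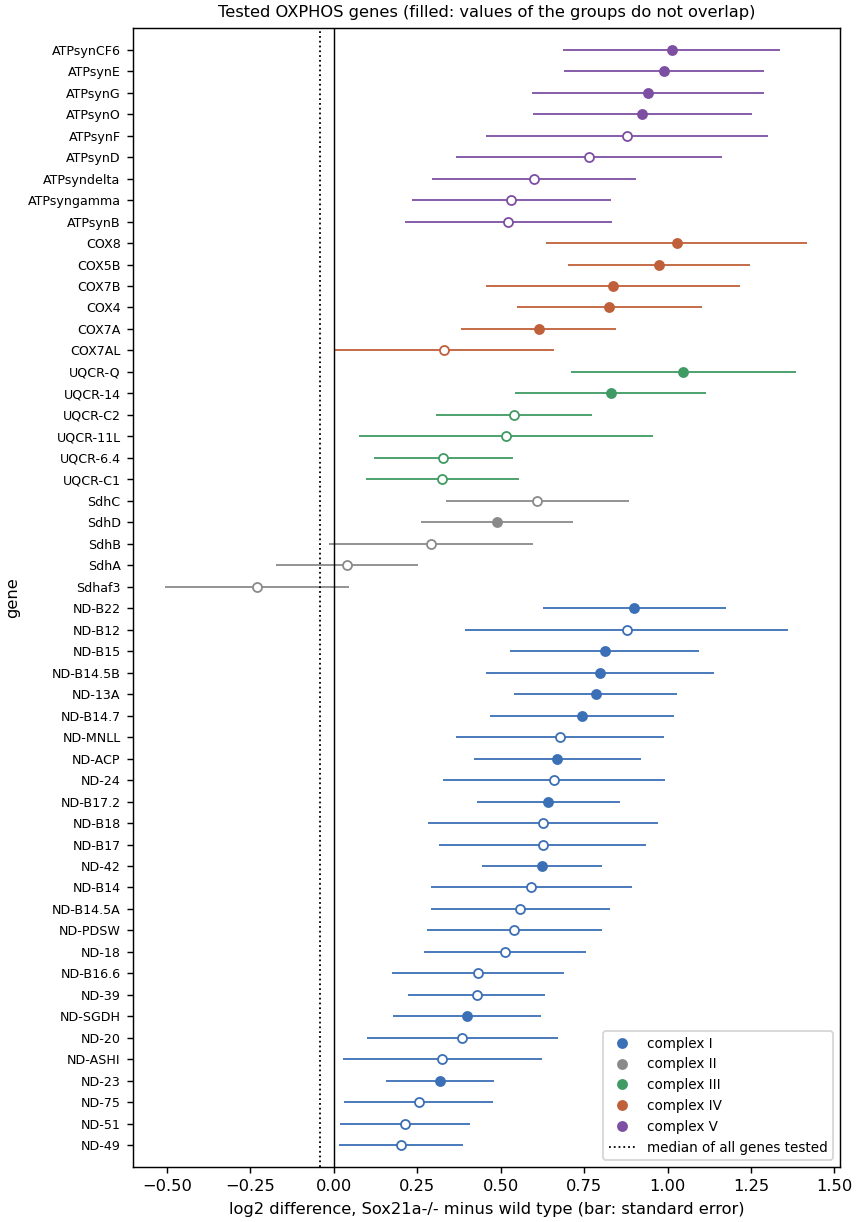
Log2 difference (Sox21a-/- minus wild type) of the 52 tested OXPHOS genes with its standard error as a bar, coloured by complex, with filled points where the values of the groups did not overlap (22 genes) and a dotted line at the median of all genes tested (-0.04). All but Sdhaf3 lie above 0.

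Levels per length differed between the complexes. In wild type, the median FPKM over genes above 0 in all libraries was between 35.5 and 68.2 in the 4 libraries for complex I (21 genes), between 52.1 and 104.1 for complex II (3 genes) and between 74.8 and 151.8 for complex III (5 genes). It was between 129.5 and 273 for complex IV (4 genes) and between 92.3 and 246 for complex V (8 genes). In the Sox21a-/- libraries these medians were between 67.6 and 102.5 FPKM for complex I, 83.5 and 130.4 for complex II, 120.5 and 183.7 for complex III, 305.4 and 457.8 for complex IV and 213.6 and 385 for complex V. By this median, only complex IV had all 3 Sox21a-/- libraries above all 4 of wild type. In complex I, Sox21a-/- replicate 2 lay below wild type replicate 4, and in complexes II, III and V below wild type replicates 3 and 4. By the share of the summed FPKM of a library, 4 complexes were apart. Complex I took up 0.268% to 0.328% of wild type libraries versus 0.375% to 0.442% of Sox21a-/- libraries. For complex III these shares were 0.101% to 0.126% and 0.161% to 0.183%, for complex IV 0.151% to 0.239% and 0.295% to 0.341%, and for complex V 0.247% to 0.409% and 0.481% to 0.579%. Those of complex II overlapped, at 0.0475% to 0.0637% and 0.0627% to 0.0668%. By the geometric mean of FPKM, complexes I, III and IV were apart, but complex I was close to a tie. There, wild type replicate 4 was at 69.3 FPKM and Sox21a-/- replicate 2 at 69.4 FPKM. The ranking of the single genes was also much alike in both genotypes (Spearman rho = 0.96, and Pearson r = 0.98 on mean log2(FPKM + 1)). Both values are across the 41 genes, which share libraries and are not independent replicates.

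**Figure D3:**
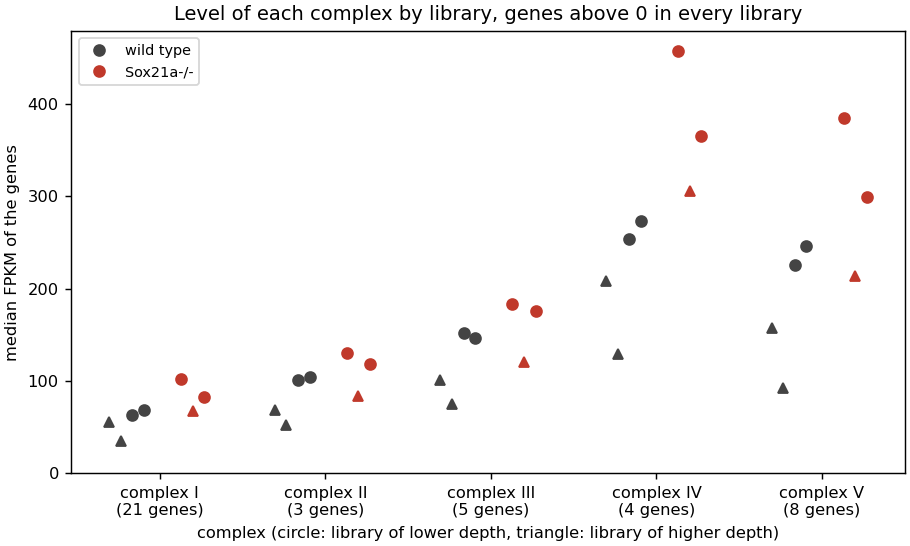
Median FPKM of the genes of each complex that were above 0 in every library, with 1 point per library, grey for wild type and red for Sox21a-/-, circles for libraries of lower and triangles for those of higher depth. By this measure, only in complex IV do all Sox21a-/- points lie above all wild type points (305.4 to 457.8 against 129.5 to 273 FPKM).

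Complex I takes electrons from NADH through a flavin and a chain of iron-sulfur clusters. All 26 tested genes of this complex had a log2 difference above 0 (median 0.61, range 0.20 to 0.90). Of these, 8 passed the unadjusted P of 0.05, where 14.6% of all genes passed with higher values. The groups were apart for 10, where 16.9% of all genes were apart in this direction. The core subunits, which carry the flavin, the iron-sulfur clusters or the ubiquinone site and are conserved in bacteria, had a median log2 difference of 0.29 over 6 genes, and none passed. The 20 tested accessory subunits, which surround that core, had a median of 0.63, and 8 passed. The core and accessory genes also differ in length, with a median of 1463 and 807 bases in annotated exons, and the difference between these classes was not tested.
Among the core subunits, ND-24 was at 32.9, 20.6, 49.2 and 48.1 FPKM in the wild type libraries (replicates 1 to 4, the order used throughout) versus 76.9, 40.4 and 59.3 FPKM in those of Sox21a-/- (replicates 1 to 3). Sox21a-/- replicate 2 thus lay below wild type replicates 3 and 4 (log2 difference 0.66, standard error 0.33, limma adjusted p = 0.233). ND-23 was at 55.1, 40.9, 46.8 and 53.4 FPKM in wild type libraries versus 68.0, 60.4 and 55.2 FPKM in Sox21a-/-. The groups did not overlap, but by a narrow margin (log2 difference 0.32, standard error 0.16, exact permutation p = 0.0571). ND-20 had a log2 difference of 0.39 and ND-49, the subunit next to the ubiquinone site, one of 0.20 (60.7 to 79.8 FPKM in wild type and 63.8 to 95.0 FPKM in Sox21a-/-). The sign of ND-49 depended on the scaling, since it was at -0.00056 with quantile normalization and at -0.0083 with sum scaling. ND-51, which binds the flavin, was at 0, 56.3, 68.3 and 81.1 FPKM in wild type libraries versus 86.0, 70.3 and 80.9 FPKM in Sox21a-/-. ND-75, the large iron-sulfur subunit, was at 22.3, 26.2, 35.9 and 0 FPKM in wild type libraries versus 30.7, 28.8 and 41.1 FPKM in Sox21a-/-. In both, the groups overlapped (log2 differences 0.21 and 0.25, limma adjusted p = 0.506 and 0.491).

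Among the accessory subunits, ND-42 had the lowest limma P of all OXPHOS genes taken by symbol (0.0075). It lies on the plus strand of chromosome 3R from 22027709 to 22029393 in BDGP6, a later build than the one the reads were mapped to. It was at 32.0, 35.5, 41.4 and 41.7 FPKM in wild type libraries versus 68.7, 46.9 and 61.4 FPKM in Sox21a-/-. Its groups were fully apart. The means were 37.7 ± 4.74 FPKM (SD, n = 4) and 59.0 ± 11.1 FPKM (SD, n = 3), and the log2 difference was 0.62 (standard error 0.18, limma adjusted p = 0.0549). Its exact permutation p was 0.0286, the smallest that the 35 splits of 7 libraries into 4 and 3 can give.
ND-B22 (chromosome 2L, 13370103 to 13371110 in BDGP6, minus strand) was at 47.9, 30.7, 58.4 and 67.4 FPKM in wild type libraries versus 113.5, 75.5 and 92.3 FPKM in Sox21a-/-. Its groups were apart as well, with a log2 difference of 0.90 (standard error 0.28, limma adjusted p = 0.0664, exact permutation p = 0.0571). ND-B17.2 was at 39.9 to 68.2 FPKM in wild type libraries versus 77.3 to 102.5 FPKM in Sox21a-/- (log2 difference 0.64, standard error 0.21). ND-B15 was at 53.7, 28.4, 55.2 and 56.9 FPKM in wild type libraries versus 110.8, 67.1 and 76.8 FPKM in Sox21a-/- (log2 difference 0.81, standard error 0.28). Both had groups apart and an exact permutation p of 0.0286. ND-13A was listed at 0 in wild type replicate 1, was at 23.3, 41.7 and 29.7 FPKM in the other wild type libraries, and was at 64.6, 53.1 and 44.9 FPKM in Sox21a-/- (log2 difference 0.78, standard error 0.24). The other tested accessory subunits had log2 differences between 0.32 (ND-ASHI, at 0 in Sox21a-/- replicate 1) and 0.88 (ND-B12, at 0 in wild type replicate 1). ND-ACP, the mitochondrial acyl carrier protein, which also serves in fatty acid and lipoate synthesis, was among those with groups apart (83.2 to 144.2 FPKM in wild type and 160.8 to 239.5 FPKM in Sox21a-/-, log2 difference 0.67). The remaining gene, ND-13B, was above 0 only in wild type replicate 4 (39.5 FPKM) and Sox21a-/- replicates 1 and 3 (80.9 and 65.2 FPKM) and could not be tested.

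Complex II oxidizes succinate and is at the same time an enzyme of the tricarboxylic acid (TCA) cycle. Its median log2 difference was 0.29 over 5 tested genes. None passed the unadjusted P of 0.05 (14.6% of all genes passed with higher and 14.7% with lower values). SdhA, the flavoprotein that binds succinate, was at 48.2, 51.6, 74.2 and 74.8 FPKM in wild type libraries versus 66.8, 52.7 and 70.2 FPKM in Sox21a-/-. The Sox21a-/- values lay within the wild type range. The means were 62.2 ± 14.3 FPKM (SD, n = 4) and 63.2 ± 9.24 FPKM (SD, n = 3), for a log2 difference of 0.04 (standard error 0.21) with an exact permutation p of 0.886. The sign of this small difference turned with quantile normalization (-0.13) and sum scaling (-0.17). SdhB, the iron-sulfur subunit, was at 68.5, 64.8, 130.3 and 122.2 FPKM in wild type libraries versus 130.4, 83.5 and 130.8 FPKM in Sox21a-/-. Of these, the 3 lowest values are those of the libraries of higher depth (log2 difference 0.29, standard error 0.31, limma adjusted p = 0.567). The membrane anchors SdhC and SdhD had larger log2 differences, 0.61 and 0.49. SdhC was at 52.1 to 104.1 FPKM in wild type libraries versus 102.8 to 161.6 FPKM in Sox21a-/-, with overlapping groups. SdhD had values of 34.0, 0, 46.5 and 44.4 FPKM in wild type libraries versus 66.5, 0 and 51.2 FPKM in Sox21a-/-, with both zeros in replicate 2, so its values above 0 were apart. The assembly factor gene Sdhaf3 was at 12.9, 0, 6.27 and 5.93 FPKM in wild type libraries versus 6.96, 6.80 and 5.98 FPKM in Sox21a-/-. It was the only tested gene with a log2 difference below 0 (-0.23, standard error 0.28), and without wild type replicate 1 the difference was 0.09.

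Complex III moves electrons from ubiquinol to cytochrome c. All 6 tested genes had a log2 difference above 0 (median 0.53). Of these, 3 passed the unadjusted P of 0.05 (14.6% of all genes passed with higher values). The groups were apart for 2 (16.9% of all genes in this direction). UQCR-Q, a small membrane subunit (chromosome 3L, 17474761 to 17476124 in BDGP6, plus strand), was at 168.1, 74.8, 163.6 and 191.7 FPKM in wild type libraries versus 378.5, 238.9 and 276.5 FPKM in Sox21a-/-. The groups were fully apart, with means of 149.5 ± 51.3 FPKM (SD, n = 4) and 297.9 ± 72.3 FPKM (SD, n = 3). Its log2 difference of 1.05 (standard error 0.34) was the largest of the 52 tested genes, but its limma adjusted p was 0.0755 (exact permutation p = 0.0286). UQCR-14, another small subunit, was at 144.3, 82.0, 165.9 and 171.5 FPKM in wild type libraries versus 303.3, 225.6 and 206.2 FPKM in Sox21a-/-, also without overlap (log2 difference 0.83, standard error 0.28). The large core proteins UQCR-C1 and UQCR-C2 face the mitochondrial matrix. UQCR-C2 was at 53.5 to 86.8 FPKM in wild type libraries versus 82.9 to 110.8 FPKM in Sox21a-/- (log2 difference 0.54), and UQCR-C1 at 101.2 to 151.8 FPKM and at 120.5 to 183.7 FPKM (log2 difference 0.33), both with overlapping groups. UQCR-6.4 was listed at 0 in wild type replicate 2 and otherwise at 163.3 to 225.1 FPKM in wild type libraries versus 212.8 to 262.8 FPKM in Sox21a-/- (log2 difference 0.33). The paralogue UQCR-11L was at 0.783 to 5.14 FPKM in wild type libraries versus 2.26 to 5.74 FPKM in Sox21a-/-, far below the other genes of the complex. Across libraries it followed the others least, with a median correlation of 0.12 with the other 40 genes above 0 in all libraries (over 7 libraries, which all these genes share).

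Complex IV reduces oxygen to water. All 6 tested genes had a log2 difference above 0 (median 0.83). Of these, 4 passed the unadjusted P of 0.05 (14.6% of all genes passed with higher values). The groups were apart for 5 (16.9% of all genes in this direction). COX4, a nuclear subunit that binds the mitochondrially encoded core (chromosome 2L, 19958713 to 19960065 in BDGP6, plus strand), was at 207.3, 148.3, 274.7 and 295.4 FPKM in wild type libraries versus 498.6, 327.7 and 382.8 FPKM in Sox21a-/-. The lowest Sox21a-/- value was above the highest wild type value, and the means were 231.4 ± 67.0 FPKM (SD, n = 4) and 403.1 ± 87.2 FPKM (SD, n = 3). This is a log2 difference of 0.83 (standard error 0.28, limma adjusted p = 0.0868, exact permutation p = 0.0571). COX5B, a zinc-binding subunit, was at 108.8, 65.5, 122.9 and 0 FPKM in wild type libraries versus 224.2, 162.7 and 184.6 FPKM in Sox21a-/-. Its values above 0 were apart (log2 difference 0.97, standard error 0.27, limma adjusted p = 0.0572). The small membrane subunits COX7A, COX7B and COX8 also had groups apart. COX8 was at 174.1, 78.1, 233.3 and 250.5 FPKM in wild type libraries versus 416.9, 280.3 and 347.3 FPKM in Sox21a-/- (log2 difference 1.03, standard error 0.39). COX7B was at 112.6 to 345.6 FPKM and at 367.7 to 538.1 FPKM (log2 difference 0.84), and COX7A at 146.3 to 248.96 FPKM and at 283 to 379.1 FPKM (log2 difference 0.61). COX7C was above 0 only in wild type replicate 2, at 144.9 FPKM, and was not tested. The paralogues were near the lower end of the table. COX7AL was at 2.26, 1.02, 0 and 0.609 FPKM in wild type libraries versus 1.57, 1.26 and 2.62 FPKM in Sox21a-/-. COX6AL was at no more than 1.17 FPKM in any library and was above 0 in only 3 of them, and was not tested.

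Complex V makes ATP. All 9 genes could be tested and had a log2 difference above 0 (median 0.88). Of these, 4 passed the unadjusted P of 0.05 (14.6% of all genes passed with higher values). The groups were apart for 4 (16.9% of all genes in this direction). These 4 genes were ATPsynE, ATPsynCF6, ATPsynG and ATPsynO. ATPsynE and ATPsynG encode membrane subunits that hold ATP synthase dimers together, and ATPsynCF6 and ATPsynO encode parts of the peripheral stalk that keeps the catalytic head from turning. ATPsynE (chromosome 3R, 14326947 to 14327735 in BDGP6, plus strand) was at 142.5, 87.2, 183.2 and 194.5 FPKM in wild type libraries versus 366.5, 243.9 and 269.9 FPKM in Sox21a-/-. The groups did not overlap, and the means were 151.9 ± 48.5 FPKM (SD, n = 4) and 293.4 ± 64.6 FPKM (SD, n = 3). The log2 difference was 0.99 (standard error 0.30, limma adjusted p = 0.0645, exact permutation p = 0.0286). ATPsynCF6 was at 163.0, 89.5, 188.3 and 237.8 FPKM in wild type libraries versus 405.3, 278.1 and 300.6 FPKM in Sox21a-/- (log2 difference 1.01, standard error 0.33). ATPsynG was at 111.1 to 295.8 FPKM and at 306.8 to 508.9 FPKM (log2 difference 0.94). ATPsynO was at 122.6, 73.2, 152.9 and 150.6 FPKM in wild type libraries versus 259.9, 0 and 201 FPKM in Sox21a-/-, so its separation rests on 2 Sox21a-/- values (log2 difference 0.92). With the 0 kept as a value its log2 difference turned to -1.69.
The other genes of complex V overlapped because Sox21a-/- replicate 2 lay below wild type replicates 3 or 4. In ATPsyngamma, the rotating shaft, the values were 163.6, 133.7, 243.3 and 254.3 FPKM in wild type and 362.5, 198.8 and 297.5 FPKM in Sox21a-/- (log2 difference 0.53). ATPsyndelta, also part of the rotor, was at 93.1 to 215.7 FPKM and at 192 to 299.3 FPKM (log2 difference 0.60). The stalk and membrane genes ATPsynB, ATPsynD and ATPsynF had log2 differences of 0.52, 0.76 and 0.88 with standard errors of 0.31, 0.40 and 0.42.

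**Figure D4:**
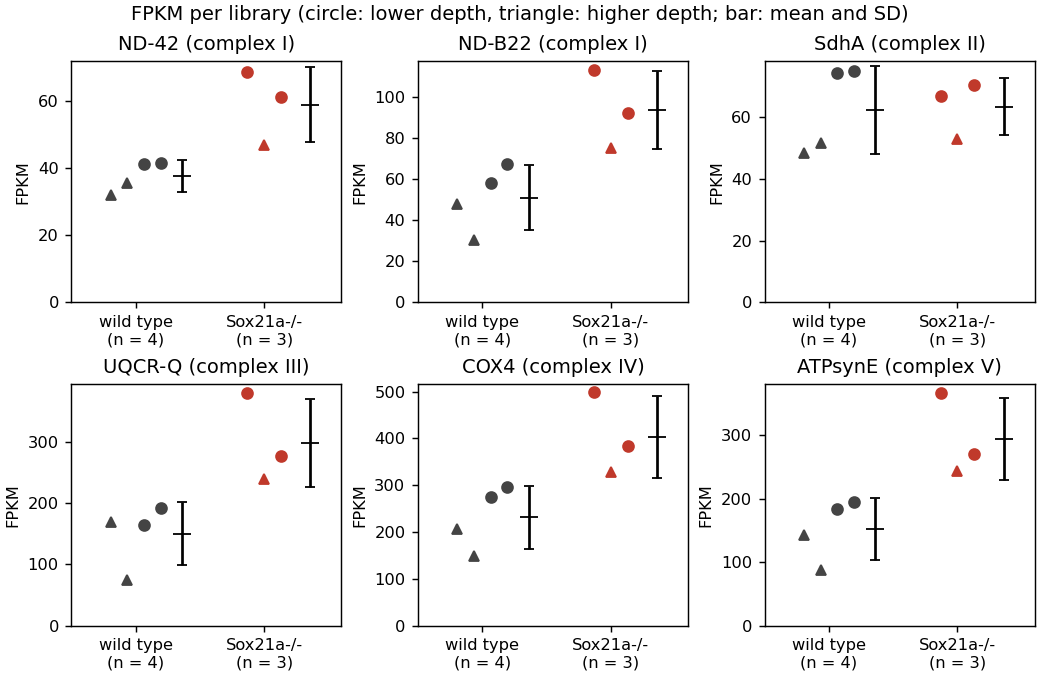
FPKM of 6 OXPHOS genes in each library, with circles for libraries of lower and triangles for those of higher depth, and the mean and SD of each group as a bar (n = 4 and n = 3). The groups are apart in ND-42, ND-B22, UQCR-Q, COX4 and ATPsynE, whereas the SdhA values of Sox21a-/- (52.7 to 70.2 FPKM) lie within those of wild type.

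Depth moved with the levels within a genotype. Of the 41 genes above 0 in all libraries, 35 were lower in wild type replicates 1 and 2 than in replicates 3 and 4. In 37 of them Sox21a-/- replicate 2 was lower than replicates 1 and 3. No such counts over all genes are given, so these do not set the OXPHOS genes apart. The groups were therefore also compared within each depth level, a comparison chosen after seeing the data. At lower depth, 38 of the 41 genes had both Sox21a-/- libraries over both of wild type (92.7%, against 34.3% of all 2460 tested genes of that kind), the exceptions being ND-B14.5A, SdhA and UQCR-11L. At higher depth, Sox21a-/- replicate 2 exceeded both wild type libraries in 36 of 41 (87.8%, against 33.0%). Both held for 34 genes (82.9%, against 23.2%). The median log2 difference of the 41 genes was 0.46 within the lower and 0.65 within the higher level. By complex it was 0.45 and 0.61 in complex I, 0.05 and 0.32 in complex II, 0.35 and 0.76 in complex III, 0.56 and 0.98 in complex IV, and 0.54 and 0.84 in complex V.
With depth level as a covariate in limma, 4 of 52 OXPHOS genes passed an adjusted p of 0.05, all with higher values in Sox21a-/- (7.69%, where 7.85% of all genes passed in this direction). They were ND-42 (log2 difference 0.56), ND-B22 (0.80), ATPsynE (0.89) and COX4 (0.73), with limma adjusted p = 0.0237, 0.0331, 0.0362 and 0.0374. None passed with lower values (6.09% of all genes). Using only the 4 libraries of lower depth, 8 of 48 passed (16.7%, against 13.3% of 3327 genes), namely ND-42, ND-B22, ND-B15, ND-B17.2, UQCR-Q, COX8, ATPsynE and ATPsynCF6, and none with lower values (6.64% of all genes). This last fit rests for wild type on replicates 3 and 4 alone, whose likeness is given above. These shares of passing genes lie near those of all genes, while the share of genes with a log2 difference above 0 was 96.2% with the covariate and 97.9% in the lower level, against 46.3% and 50.5% of all genes. Among genes above 0 in all libraries fitted alone, ND-42 passed (9.23% of such genes passed with higher and 7.97% with lower values), and all 41 OXPHOS genes had a log2 difference above 0 (49.5% of such genes).

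OXPHOS genes are short, with a median of 842 bases in annotated exons, and gene length moved with genotype over the whole table. Among tested genes that are not OXPHOS genes, the median log2 difference was 0.18 for those with 501 to 750 exon bases and 0.20 for those with 751 to 1000. It was -0.12 for those with 2001 to 3000 and -0.22 for longer ones. OXPHOS genes lay above the other genes of their length class in each class that held at least 4 of them, with medians of 0.66 (4 genes, up to 500 bases), 0.74 (15 genes, 501 to 750), 0.65 (16 genes, 751 to 1000), 0.48 (8 genes, 1001 to 1500) and 0.38 (6 genes, 1501 to 2000). The medians of the other genes in these classes were -0.02, 0.18, 0.20, 0.02 and -0.05. Wild type replicate 2 was low for short genes in general, with a median deviation of -0.38 on the log2 scale from the mean over libraries at 501 to 750 bases and of 0.10 above 3000 bases. Sox21a-/- replicate 1 was the opposite (0.35 and -0.27). A loess correction of each library for exon length was fitted on genes that are not OXPHOS genes and chosen after seeing the data. With it, the median log2 difference of the 52 genes was 0.36, and 50 of them were above 0 (37.9% of all genes). The median over all genes tested also moved, from -0.04 to -0.15. In limma none of the 52 passed an adjusted p of 0.05 (6.74% of all genes passed with higher and 9.73% with lower values). The unadjusted P was passed by 8 with higher values (15.4%, against 12.2% of all genes). With this correction and depth level together, the median of the 52 genes was 0.26 and that of all genes tested -0.16. In that fit ND-42, ND-B22, COX4 and ATPsynE passed (7.69%, against 8.2% of all genes, 13.7% passing with lower values). There, 48 OXPHOS genes were above 0 (37.3% of all genes). The part of length in the result was not tested beyond this.

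**Figure D5:**
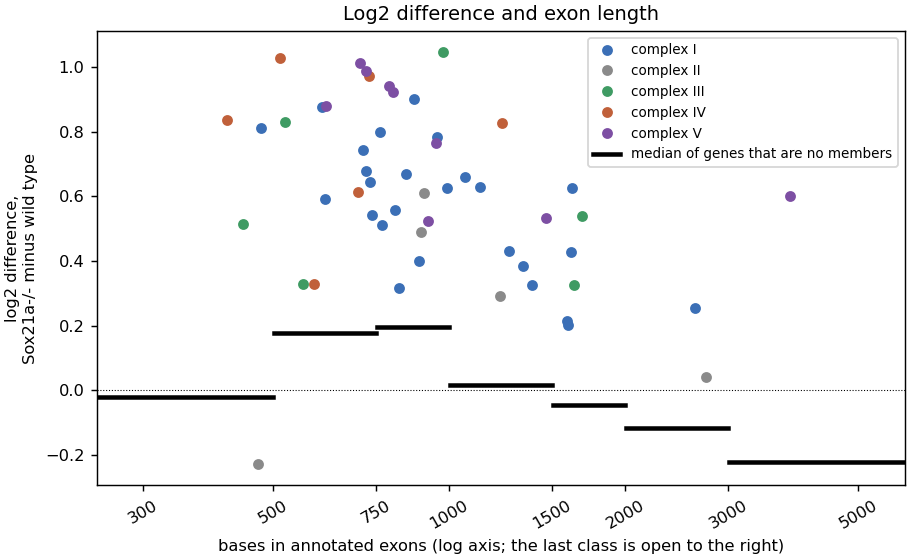
Log2 difference (Sox21a-/- minus wild type) of the 52 tested OXPHOS genes against their bases in annotated exons on a log axis, coloured by complex, with black bars for the median of all other tested genes in each length class. The black bars go from 0.18 and 0.20 at 501 to 1000 bases to -0.22 above 3000 bases, and most OXPHOS genes lie above the bar of their class.

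Other genes of respiration were taken from lists written for this comparison. For these lists and the marker lists below, 46.5% of all genes tested had a log2 difference above 0. At an adjusted p of 0.05, 6.87% of all genes passed with higher and 5.28% with lower values. At an unadjusted P of 0.05 these shares were 14.6% and 14.7%. Of 16 OXPHOS genes with other symbols, 11 were tested, and 9 of these had a log2 difference above 0 (median 0.77). The only gene past an adjusted p of 0.05 was ox, a small subunit of complex III, at 61.2 to 130.5 FPKM in wild type libraries versus 364.9, 235.2 and 0 FPKM in Sox21a-/- (log2 difference 1.44, limma adjusted p = 0.0424), which thus rests on 2 Sox21a-/- values. The stunted gene (sun), which encodes the epsilon subunit of ATP synthase, was at 59.9, 32.8, 62.6 and 0 FPKM in wild type libraries versus 123.1, 0 and 95.0 FPKM in Sox21a-/- (log2 difference 1.10, limma adjusted p = 0.0729). The complex III genes Cyt-c1 and RFeSP, the cytochrome and the Rieske iron-sulfur protein, had log2 differences of 0.77 and 0.78 (limma adjusted p = 0.0836 and 0.105), with Cyt-c1 listed at 0 in wild type replicate 4. The catalytic alpha subunit of ATP synthase, blw, was at 210.7, 234.8, 385.9 and 385 FPKM in wild type libraries versus 414.5, 260.6 and 426.4 FPKM in Sox21a-/- (log2 difference 0.29, standard error 0.30). The assembly factor gene CIA30, for complex I, was at 7.52 to 8.78 FPKM in Sox21a-/-, below each of the 4 wild type libraries (log2 difference -0.32, limma adjusted p = 0.146), and Scox, an assembly factor gene for complex IV, had a log2 difference of -0.06.
In the TCA cycle list, 9 of 16 genes were tested, 8 had a log2 difference above 0 with a median of 0.18, and none passed an adjusted p of 0.05 (2 passed the unadjusted P). Among them were Pdhb, of the pyruvate dehydrogenase complex (log2 difference 0.63, limma adjusted p = 0.11), the aconitase mAcon1 (0.65, limma adjusted p = 0.134, at 0 in wild type replicate 3 and Sox21a-/- replicate 2), Mdh2 (0.46) and Idh3a (0.29, at 0 in wild type replicate 3). The citrate synthase kdn was at 95.2 to 120.8 FPKM in wild type libraries versus 98.1 to 105.3 FPKM in Sox21a-/-. Of 9 tested glycolysis genes, 7 were above 0 (median 0.36). One hexokinase gene, Hex-C, passed (0.478 to 1.07 FPKM in wild type and 1.74 to 3.66 FPKM in Sox21a-/-, log2 difference 1.09, limma adjusted p = 0.0243). Its level per length is far below that of Hex-A, which had a log2 difference of -0.0011. Pglym78, Tpi and Gapdh2 had log2 differences of 0.54, 0.69 and 0.37 and did not pass. In the list of genes that maintain or express mitochondrial DNA, 1 of 5 tested genes was above 0 (median -0.24). The mtDNA-helicase gene was lower in Sox21a-/-, at 2.77 to 3.54 FPKM against 6.92 and 9.34 FPKM in the 2 wild type libraries above 0 (log2 difference -1.09, limma adjusted p = 0.0233). TFAM, which packages mitochondrial DNA, was at 27.95 to 48.0 FPKM in wild type libraries versus 24.5 to 38.7 FPKM in Sox21a-/- (log2 difference -0.24), and mtSSB and Ets97D had log2 differences of -0.18 and -0.66, the latter listed at 0 in wild type replicates 2 and 4.

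Markers of the sorted cells and of other cells moved with genotype. Of 10 progenitor markers, 6 were in the table and 4 were tested, all with a log2 difference below 0. An adjusted p of 0.05 was passed by 2 (klu and Sox21a), where 5.28% of all genes passed with lower values. Sox21a is the deleted gene, and its test rests on 2 values above 0 per group. The untested markers went the other way. Sox100B and E(spl)mbeta-HLH were above 0 only in Sox21a-/- replicate 3 (378.3 and 1001.8 FPKM). The EB factor gene klu was at 43.0, 29.7, 49.0 and 41.0 FPKM in wild type libraries versus 9.14, 11.4 and 16.6 FPKM in Sox21a-/- (log2 difference -1.66, limma adjusted p = 0.00282). E(spl)m3-HLH and N had log2 differences of -0.61 and -0.27 (limma adjusted p = 0.353 and 0.574). The defining genes Escargot and Delta were not analysed here. Of 10 tested enterocyte markers, 9 had a log2 difference above 0 (median 2.28), where 46.5% of all genes tested had such a sign. The 2 past an adjusted p of 0.05 were Npc2f (2.68) and the protease gene Jon99Ci (2.59), against 6.87% of all genes. The other tested marker, lab, went down, at 13.2 to 34.1 FPKM in wild type libraries versus 7.64 to 12.6 FPKM in Sox21a-/-. Its log2 difference was -0.92 (limma adjusted p = 0.0798). The 7 enterocyte markers above 0 in all libraries summed to 90.1 to 371.4 FPKM in wild type libraries versus 672.1 to 1478 FPKM in Sox21a-/-, without overlap. Of the untested ones, Myo31DF was at 0 in all 3 Sox21a-/- libraries and in 2 of wild type. Amy-p and Amy-d were also at 0 in all 3 Sox21a-/- libraries, and at up to 215.7 and 100.9 FPKM in wild type. LManVI and betaTry were above 0 in Sox21a-/- only in replicate 3 (97.6 and 1319 FPKM), over all their wild type values. Of 7 tested enteroendocrine markers, 6 had a log2 difference above 0 (median 0.55). Among them, the peptide gene CCHa2 rose most (log2 difference 2.55, at 0 in replicate 2 of either genotype). NPF, Orcokinin, AstA and Rab3 had log2 differences of 0.41, 0.55, 0.89 and 0.44. Only Mip fell (-4.58, on 2 wild type values above 0). Only CCHa1 of this list was above 0 in all libraries, with overlapping groups (log2 difference 0.63). The 4 muscle markers above 0 in all libraries summed to 92.6 to 172.2 FPKM and to 86.9 to 131.1 FPKM, most of it from Act87E. Among them, the collagen gene vkg was at 0.203 to 0.289 FPKM in wild type libraries versus 1.24, 18.8 and 2.23 FPKM in Sox21a-/- (log2 difference 2.06, limma adjusted p = 0.0846), apart and highest in Sox21a-/- replicate 2. The muscle genes Mlc1, Mlc2 and Tm2 were at or below 5.33 FPKM in every library. The part of other cells in the values of the OXPHOS genes was not tested.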

How the data were processed

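Single-end reads were mapped by the authors with TopHat 2.0.10 to Release 5 (BDGP5), and Cufflinks 2.2.1 gave the deposited FPKM per library, per the labels and the study's methods. No filter on genes or scaling between libraries is stated there. Symbols came from FlyBase IDs (7339 of 7608 matched), and positions, exon bases and transcript numbers from the BDGP6 annotation. Depth was taken as the step shared by at least 5 genes with 1 transcript among values of FPKM times kilobases below 0.2, so reads are approximate. For 8 OXPHOS genes with 1 transcript, above 0 in all libraries and over 50 reads in each, values stand for about 138 to 2351 reads.

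Values of 0 were treated as missing. The comparison used limma 3.58.1 in R 4.3.3 (trend and robust settings) on log2(FPKM + 1), tested on simulated data, with Benjamini-Hochberg adjustment over all genes tested. Single genes above 0 in all libraries also had an exact permutation test over the libraries, two-sided. Tables were made in Python 3.11.15 (pandas 2.3.3, numpy 2.4.6, scipy 1.17.1), and plots in matplotlib 3.10.9. Genes named are every core subunit, paralogue and assembly factor, the 5 genes of each complex with the lowest P, and the 4 of each other list with the lowest P. A few others (such as ND-ACP, ND-B12, ND-ASHI, ND-13B, blw, Scox, CIA30, kdn, Hex-A and the markers) were picked with their values in view. The genes and lists were chosen with earlier results of these data known. No sequences are shown.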

Additional observations from a re-analysis of the deposited data

Results flagged for a closer look

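Of 43 OXPHOS genes above 0 in all 4 wild type libraries, 2 had 1 wild type library far from the other 3 by Dixon's criterion, where chance gives about 2.15. In both, the library was wild type replicate 2. ND-B15 was at 28.4 FPKM there and at 53.7 to 56.9 FPKM in the others, and ND-B16.6 was at 35.6 FPKM there and at 66.7 to 67.7 FPKM in the others.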

How the results depend on the processing

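The median log2 difference of each complex stayed above 0 under every alternative but 1. With the exon length loess and depth level together it was 0.23, -0.044 and 0.24 in complexes I, II and III. The count of OXPHOS genes past a limma adjusted p of 0.05 with higher values, 0 as reported (19 at an unadjusted P of 0.05), was 1 among genes above 0 in all libraries (ND-42), 1 with median-ratio scaling (COX5B) and 0 to 1 when a library was left out (ND-42 without Sox21a-/- replicate 2). With settings chosen after seeing the data it was 4 with depth level, 4 with loess and depth level, and 8 in the libraries of lower depth. The 19 (36.5%, against 14.6% of all genes) became 11 with zeros kept (20.4%, against 8.16%), 8 with the loess (15.4%, against 12.2%), 29 with depth level (55.8%, against 15.8%) and 4 to 27 when a library was left out (8.0% to 51.9%, against 12.2% to 17.0%). The count past P of 0.05 and a fold of 2 was 3 as reported. It was 0 with quantile normalization, sum scaling, depth level, the loess (alone or with depth level) and the libraries of lower depth. In those fits 6.33% to 8.63% of all genes passed. With wild type replicates 3 and 4 averaged it was 8 (15.4%, against 7.99% of all genes). It was 0 to 9 when a library was left out (0% to 17.6%, against 7.48% to 9.43% of all genes). Sum scaling without the 50 highest genes moved the median of all genes from -0.04 to -0.23, that of the OXPHOS genes then being 0.40. The cause was not tested.

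Same-numbered libraries did not deviate together in every pair (correlations -0.0027, 0.37 and 0.20 for numbers 1, 2 and 3). For numbers 2 and 3, each library had its highest correlation across genotypes with the other of its number. Wild type replicate 1 was near 0 with every Sox21a-/- library (-0.018 to 0.029). The labels give only the number, and whether it marks a pairing cannot be told from these values. With the number as a replicate block, 6 OXPHOS genes passed the adjusted p (11.5%, against 6.06% of 4305 genes), 33 the unadjusted P (63.5%, against 15.1%) and 9 P and fold (17.3%, against 9.11%), all with higher values, and COX7AL was at -0.089.

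Single genes turned sign. With zeros kept, ATPsynO was at -1.69, SdhD at -0.12 and Sdhaf3 at 0.56. SdhA was at -0.13 with quantile normalization, -0.17 with sum scaling, -0.041 with depth level, -0.049 with loess and depth level, -0.12 in the libraries of lower depth and between -0.071 and 0.16 when a library was left out. ND-49 was at -0.00056 with quantile normalization, -0.0083 with sum scaling and -0.00022 with loess and depth level. SdhB was at -0.044 with loess and depth level and COX7AL at -0.039 with loess. Sdhaf3 was at 0.071 in the libraries of lower depth and between -0.41 and 0.093 when a library was left out. Of 796 values of 37 named genes, 751 kept direction and side of the threshold, 25 passed it and 20 turned sign.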
